A study of Mus musculus with 16 samples.

Results

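The genes described here are 10 regulators of pre-mRNA splicing: the SR proteins Srsf1, Srsf2, Srsf3, Srsf5, Srsf6, Srsf7 and Srsf11, the SR-related proteins Tra2a and Tra2b, and the kinase Clk1. They were chosen by name as genes known for poison exons, retained introns or regulated exon skipping, and they are 10 of 49166 genes with a matched transcript. The annotation lists 93 transcripts for them, of which 27 are coding, 18 are marked for nonsense-mediated decay (NMD), 37 retain an intron and 11 are processed transcripts without a coding frame. All 93 were present in the deposited files, 88 had a mean above 0, and the 68 that passed the filter on low counts were tested. RNA was measured by polyA RNA-seq in mouse cortical neural progenitor cells taken late in gestation (E18.5), with 4 groups of 4 libraries. All cells carried a Cas9 lentivirus and were selected in puromycin for 48 h. The group WT_DMSO received Cas9 alone and the other 3 groups, labelled knockout, also received a guide against Chd1, which encodes a chromatin remodeller. The cells called KO_DMSO were kept in the solvent DMSO, KO_DHT cells received 10 nM of the androgen dihydrotestosterone (DHT) for 24 h, and KO_DHT_ENZ cells received 10 µM of the androgen receptor antagonist enzalutamide 30 min before the same dose of DHT. No wild-type library with DHT and no library with enzalutamide alone is among the 16 analysed here, so enzalutamide is seen only together with DHT and in knockout cells. Replicates are numbered 1 to 4 in each group. Cells of 2 litters were used without a record of which numbers belong to which litter, so p-values measure the spread between these samples.

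SR proteins bind exons and recruit the spliceosome to nearby splice sites, and many of them hold down their own amount through their own transcripts. An SR gene can splice in a poison exon, whose in-frame stop codon sends the message to NMD, or it can keep an intron, which often leaves the transcript in the nucleus. CLK1 phosphorylates SR proteins and also has a catalytically inactive short form, made when one coding exon is skipped. In neural progenitors these factors take part in the exon choices that change as cells become neurons or glia.

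The sequences below are the coding stretches of poison exons that turn a message into an NMD target. They are given for the genes whose most abundant NMD transcript has its stop codon in a whole added exon. They run from the first base of the poison exon, read 5′ to 3′, to the premature stop codon, which is in capitals. They were taken from the GENCODE M21 transcript sequences by transcript identifier, on the strand of the gene. Not every NMD transcript with reads is printed. Srsf1-204 and Srsf2-204, at means of 10.9 and 6.76 TPM, show no poison exon in the annotation. Srsf11-206, at 2.27 TPM, carries the same stretch as Srsf11-210. Srsf3-201 carries its poison exon as exon 4 of 7 (chromosome 17), Srsf6-201 as exon 3 of 7 (chromosome 2), Srsf7-203 as exon 4 of 9 (chromosome 17), Srsf11-210 as exon 3 of 5 in a partial model (chromosome 3), Tra2a-202 as exon 2 of 9 (chromosome 6) and Tra2b-206 as exon 2 of 10 (chromosome 16).
Srsf3-201: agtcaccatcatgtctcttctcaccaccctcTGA
Srsf6-201: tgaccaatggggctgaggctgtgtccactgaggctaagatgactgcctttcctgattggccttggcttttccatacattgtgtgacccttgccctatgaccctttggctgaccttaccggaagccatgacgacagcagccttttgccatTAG
Srsf7-203: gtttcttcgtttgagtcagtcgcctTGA
Srsf11-210: ttcttttccctggttcagccTGA
Tra2a-202: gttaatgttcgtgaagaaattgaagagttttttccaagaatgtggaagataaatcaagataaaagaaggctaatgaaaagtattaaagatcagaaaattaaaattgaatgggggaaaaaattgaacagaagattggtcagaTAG
Tra2b-206: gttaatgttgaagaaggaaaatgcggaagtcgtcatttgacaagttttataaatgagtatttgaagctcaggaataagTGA
The Tra2a and Tra2b poison exons, 306 and 276 bases long, begin with the same 9 bases. The hexamer GAAGAA, the core of the motif that TRA2 proteins are known to bind, was searched on the sense strand only, overlaps counted. It occurred 4 times in the whole Tra2a poison exon, 3 times in that of Tra2b, once in that of Srsf7, and not in those of Srsf3, Srsf6 and Srsf11. Of 6251 internal exons of 250 to 320 bases, 22.1% hold at least 1 copy. That range covers the exons of Tra2a, Tra2b and Srsf6 (268 bases). It does not cover those of Srsf3, Srsf7 and Srsf11, at 456, 460 and 109 bases. The share of exons with 3 or 4 copies is not given.

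Clk1 (chromosome 1) reaches a premature stop the other way, by leaving an exon out. The coding transcript Clk1-201 includes the exon printed first, 91 bases long and so not a multiple of 3. The NMD transcript Clk1-210 skips it and meets a stop, in capitals, 21 bases into the next exon.
Clk1 skipped exon 4: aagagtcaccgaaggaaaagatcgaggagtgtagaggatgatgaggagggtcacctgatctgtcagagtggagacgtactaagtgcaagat
Clk1-210 reading frame after the skip: atgaaattgttgatacttTAG
The retained-intron transcript Clk1-204 keeps introns 3 and 4, of 871 and 387 bases, which lie on either side of that exon, and intron 6, of 87 bases. In 3 other genes an annotated retained intron contains the poison exon itself: intron 2 of Srsf6 in Srsf6-204 (1283 bases), intron 3 of Srsf3 in Srsf3-204 (2150 bases) and intron 3 of Srsf7 in Srsf7-206 and Srsf7-207 (874 bases). A read inside such an exon fits both kinds of transcript, so kallisto, which divides ambiguous reads between transcripts, can move counts from one to the other. Srsf5-212 keeps intron 5 of Srsf5 (chromosome 12, 1229 bases), and the first 30 bases of the introns that carry most of the retained-intron signal of Srsf5 and Clk1 are printed with the GT of the splice site in capitals.
Srsf5 intron 5: GTttgttgaaatacagttttgagatatttt
Clk1 intron 3: GTatgagtgccttttaaacgttctgaaagg
Clk1 intron 4: GTatagaatatttttcaacacttatttact

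The libraries held 31.8 M to 36.9 M estimated counts, except WT_DMSO replicate 1 with 20.2 M. That library also differed in composition, with 73.7% of its TPM (abundance scaled by transcript length and library) in coding transcripts against 81.4% to 85.9% in the other 15. Results that rest on it are therefore also given without it. Chd1 itself was at 66.7 ± 5.73 CPM (counts scaled by library size; SD, n = 4) in WT_DMSO and 67.3 ± 2.68 CPM in KO_DMSO, with ranges of 60.2 to 73.8 and 65.2 to 71.0. In KO_DHT it was between 68.5 and 77.0 CPM and in KO_DHT_ENZ between 59.9 and 72.9. A guide can disrupt the protein without lowering the RNA, so these values do not check the knockout labels. Progenitor markers summed to between 6359 and 8381 TPM, with Nes at 579 TPM and Hes5 under 1 TPM, and Olig1 and Olig2 were also high at 859 and 493 TPM. Markers of microglia, endothelium and of pericytes, meninges and fibroblasts summed to at most 4.52, 2.94 and 2.76 TPM in any library.

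All 10 genes were expressed in every library (see the plot of gene levels by group). On the TPM scale, which is per transcript length and can be compared between genes, Srsf5 was highest at 409 ± 38.8 (SD, n = 16). Srsf2 at 248 ± 28.7, Srsf3 at 240 ± 18.5, Srsf1 at 222 ± 40.3 and Srsf7 at 197 ± 14.9 followed, each overlapping its neighbour in range. Srsf6 at 158 ± 14.6, Tra2b at 146 ± 14.9 and Srsf11 at 145 ± 39.0 lay close together. Tra2a was at 99.7 ± 21.3 TPM and the kinase Clk1 lowest at 53.3 ± 8.49. In that order, neighbours whose library ranges did not overlap were Srsf5 over Srsf2 and Tra2a over Clk1, so the order within the middle of the list is not resolved. Together the 10 genes took 0.164% to 0.218% of a library's TPM.

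**Figure D1:**
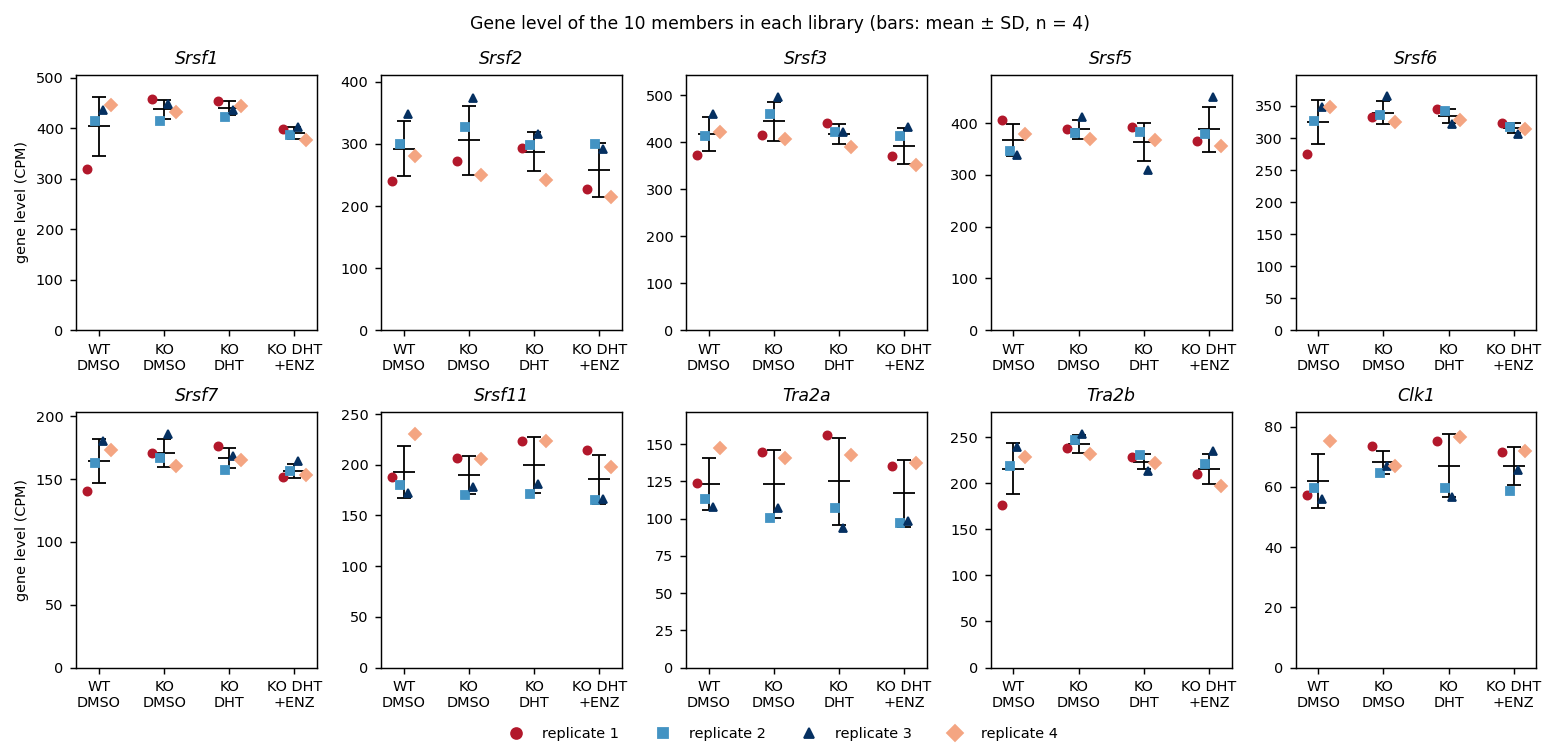
Gene level in CPM (y axis, from 0) of each of the 10 genes in the 4 groups (x axis). Each point is 1 library, marked by replicate number, and the bars are the mean ± SD of 4 libraries. The groups overlap for nearly all genes, Srsf1 in KO_DHT_ENZ lies below both other knockout groups, and Tra2a splits by replicate number within every group.

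The genes differed in how much of their RNA was coding. In Srsf2, Srsf7 and Srsf3, the coding share of the gene's TPM averaged 89.3 ± 2.54%, 84.8 ± 4.02% and 82.98 ± 4.61% (SD, n = 16). Clk1 had the lowest share at 47.2 ± 13.8%, with 19.0 ± 10.8% in NMD transcripts and 29.0 ± 4.81% in retained-intron transcripts. Poison-exon transcripts were largest in the TRA2 genes: Tra2b-206 averaged 25.7 ± 10.6% of Tra2b and Tra2a-202 22.0 ± 8.20% of Tra2a. Without WT_DMSO replicate 1, in which Tra2b-206 reached 60.4%, the other libraries held Tra2b-206 between 16% and 31.8%.

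Among the SR proteins, Srsf6-201 averaged 16.9 ± 8.97% of Srsf6, Srsf3-201 6.41 ± 1.53% of Srsf3, and Srsf7-203 1.51 ± 0.255% of Srsf7. The partial models Srsf1-204, Srsf11-210 and Srsf2-204 averaged 4.88%, 4.53% and 2.73% of their genes. The single annotated NMD transcript of Srsf5, Srsf5-208, had a median of 0% and never passed 0.236%. Retained introns averaged 31.5 ± 10.8% of Srsf11, 20.5 ± 9.60% of Srsf1 and 18.2 ± 6.62% of Srsf6, in each case more than the mean of the gene's NMD transcripts. For Srsf6 that order is not resolved. Its mean retained-intron share was below its mean NMD share in replicate 2 (14.1% against 16.8%) and in replicate 3 (11.2% against 16.1%). In Srsf5 retained introns averaged 14.3 ± 6.48% beside 16.2 ± 3.74% in processed transcripts such as Srsf5-211. They were the smaller part beside NMD transcripts in Tra2a (5.99 ± 2.12%) and Tra2b (2.49 ± 1.17%). Bulk RNA cannot tell fewer cells that use an isoform from less of it in each cell.

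The first comparison asks what the Chd1 guide did to these genes in untreated cells. None of the 10 genes differed between KO_DMSO and WT_DMSO by edgeR's quasi-likelihood test at an adjusted p of 0.05, where 0% of all 16971 genes were called. In this fit no gene among the 10 reached an unadjusted p under 0.05, while over all genes 508 did. DESeq2 also called none of the 10. Of the members, 8 had a higher and 2 a lower mean in the knockout, with log2 fold changes from -0.019 to 0.17 and a median of 0.07, against a median of -0.0015 over all genes. With the block and without WT_DMSO replicate 1, 6 were higher and 4 lower, with a median of 0.0052, so the lean upward rested on that library. The 95% intervals of the 10 changes reached from 0.771-fold to 1.31-fold. With the replicate number as a block they narrowed to between 0.887-fold and 1.26-fold, and again 0 of 10 members and 0% of all genes were called. In that blocked fit 1 member, Tra2b, had an unadjusted p under 0.05 (edgeR, 0.041), beside 7.83% of all genes.

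The Tra2b gene, whose protein activates exon inclusion, had the highest fold change of that comparison. It was at 177, 219, 240 and 229 CPM in WT_DMSO replicates 1 to 4 and at 238, 247, 253 and 232 CPM in KO_DMSO. The 2 groups overlap, since WT_DMSO replicate 3 lies inside the knockout range, and WT_DMSO replicate 1 is the lowest value. Its log2 fold change was 0.17 ± 0.090 (SE) with an edgeR adjusted p of 0.9998, or 0.63 with the block, although all 4 pairs of the same number had the higher value in the knockout. Its unadjusted edgeR p with the block was 0.041. With the block and without WT_DMSO replicate 1 the change was 0.089 ± 0.057 (edgeR unadjusted p of 0.14, adjusted p of 0.63), and Srsf5 at 0.13 was then the highest.

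The second comparison asks what DHT did in knockout cells. None of the 10 genes was called between KO_DHT and KO_DMSO by edgeR, with or without the block (0% of all genes in both fits), none reached an unadjusted p under 0.05, and DESeq2 called none of them. Their log2 fold changes ran from -0.12 (Tra2b, lower in 4 of 4 pairs, edgeR adjusted p of 0.72 with the block) to 0.068 (Srsf11, higher in 4 of 4 pairs, 0.83 with the block). Tra2b in KO_DHT, between 213 and 231 CPM, lay just below KO_DMSO, between 232 and 253 CPM, and was the 1 member without overlap in this comparison. The share of all genes without overlap is not given here, so this separation is a description only. The intervals reached from 0.757-fold to 1.315-fold, or from 0.819-fold to 1.15-fold with the block.

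**Figure D2:**
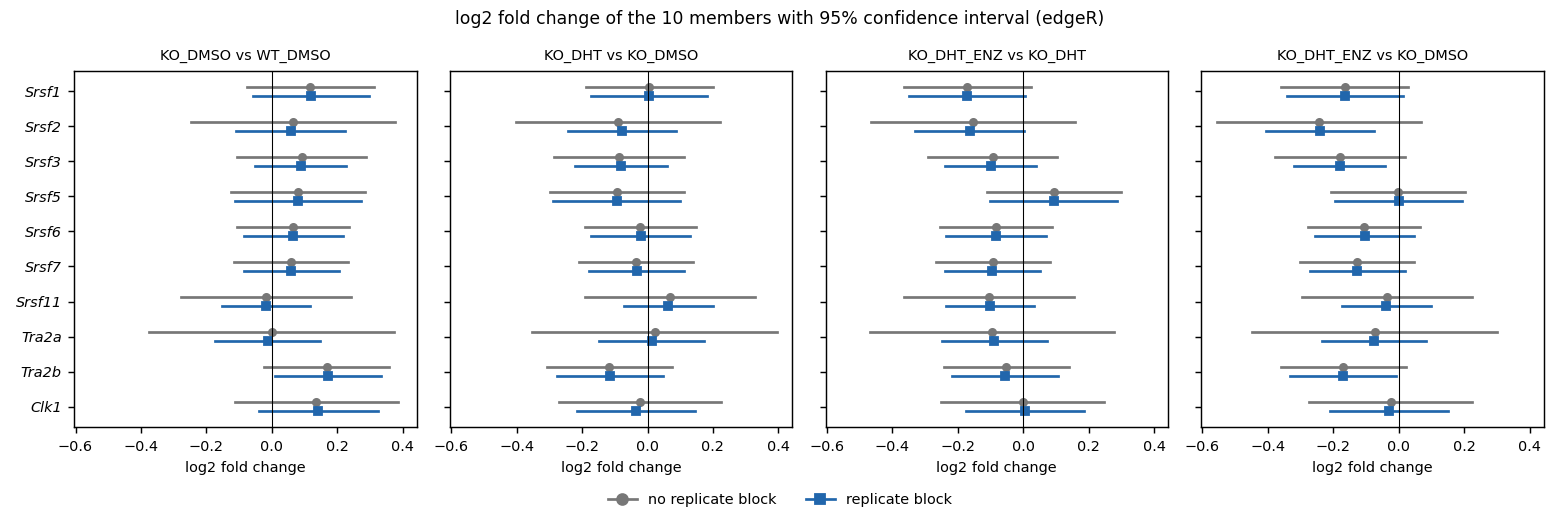
log2 fold change of each gene (y axis) in the 4 comparisons, with its 95% confidence interval, from edgeR without (grey circles) and with (blue squares) the replicate number as a block. All points lie between -0.24 and 0.17, and in the comparison of KO_DHT_ENZ with KO_DMSO all 10 lie below 0.

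Enzalutamide with DHT was compared both with DHT alone and with DMSO. No member was called by edgeR in either comparison, where 0.265% and 0.253% of all genes were, nor with the block, where 3.48% and 2.94% were, and DESeq2 called none of the 10. In KO_DHT_ENZ against KO_DMSO all 10 members had the lower mean, with log2 fold changes from -0.24 to -0.00089 and a median of -0.12 against 0.0064 over all genes. With the block 3 members, Srsf2, Srsf3 and Tra2b, had an unadjusted p under 0.05, and their edgeR adjusted p-values were 0.14, 0.20 and 0.34. Against KO_DHT, 9 members had the lower mean and the median was -0.093. The 2 comparisons share the KO_DHT_ENZ libraries and are not independent.

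Srsf1, the SR protein also called SF2/ASF, did not overlap between KO_DHT_ENZ and either other knockout group. Its level in KO_DHT_ENZ replicates 1 to 4 was 398, 386, 403 and 376 CPM. In KO_DHT it was 455, 423, 436 and 445 CPM, and in KO_DMSO 457, 415, 447 and 433 CPM. All 4 enzalutamide libraries lay below all 8 other knockout libraries, while WT_DMSO ranged from 319 CPM in replicate 1 to 446 CPM and overlaps every group. How many of all genes separate in this way is not given here, so the separation is a description only. The log2 fold change was -0.17 ± 0.092 (SE) against KO_DHT, with an edgeR adjusted p of 0.81, and 0.34 with the block. WT_DMSO replicate 1 is in neither of the groups compared but enters the estimate of the spread, and its Srsf1 level is the lowest of all 16. With the block and without that library, Srsf1 fell by 0.17 ± 0.041 against KO_DHT (edgeR adjusted p of 0.016) and by 0.17 ± 0.041 against KO_DMSO (0.018), where 8.59% and 7.24% of all genes were called.

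Srsf2, the SR protein also called SC35, had the lowest fold change against DMSO. It was at 227, 300, 291 and 215 CPM in KO_DHT_ENZ, at 272, 328, 373 and 251 CPM in KO_DMSO and at 293, 298, 316 and 242 CPM in KO_DHT. The groups overlap, and in each group replicates 2 and 3 are higher than replicates 1 and 4. Within each number the enzalutamide library was below its KO_DMSO counterpart in 4 of 4 pairs. The log2 fold change against KO_DMSO was -0.24 ± 0.15 (SE, edgeR adjusted p of 0.9999) without the block and -0.24 ± 0.078 (0.14) with it. Without WT_DMSO replicate 1 it fell by 0.24 ± 0.065 with the block (adjusted p of 0.029). Tra2b at -0.17 ± 0.052 and Srsf3 at -0.18 ± 0.056 missed the threshold in that fit, with edgeR adjusted p-values of 0.054 and 0.058. In the same fit no member was called for the guide or for DHT, where 0.0174% and 0.0058% of all genes were called. Srsf5 and Clk1 had log2 fold changes of -0.00089 and -0.024 against KO_DMSO, so not all of the 10 genes were lower by a similar amount. Srsf6 was the other member without overlap against KO_DMSO, at 307 to 324.1 CPM against 324.5 to 365 CPM, and was not called in any of these fits (edgeR adjusted p of 0.21 in the last). As for Srsf1, the share of all genes without overlap is not given.

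At the level of transcripts, none of the 68 tested was called by edgeR for the guide, for DHT or for enzalutamide with DHT against either group, where 0% of all 48966 transcripts were called in each of the 4 comparisons. At an unadjusted p under 0.05 there was 1 member transcript for the guide, Srsf2-206 (named after its value was seen), and 0 in the other 3 comparisons. Srsf2-206 is annotated as coding and counted so here. Its stop codon lies 217 bases before the last exon junction, as in Srsf2-202, which is annotated as NMD. With the block, members called were 0 in all 4, beside 0%, 0%, 0.0715% and 0.182% of all transcripts, and DESeq2 called none of those named by the rule on share. With the block and without WT_DMSO replicate 1 the backgrounds were 0%, 0%, 0.451% and 0.552%, and 1 member transcript was called. This was Srsf1-205, a coding transcript of Srsf1, which fell by 0.23 ± 0.040 in KO_DHT_ENZ against KO_DHT (edgeR adjusted p of 0.040).

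Isoform choice was tested as the log2 ratio of NMD or retained-intron TPM to coding TPM, with 0.5 added to each. None of the 9 NMD and 10 retained-intron ratios of these genes was called by limma in any of the 4 comparisons, and none had an unadjusted p under 0.05 without the block. The background was 0% of 5424 ratios in each comparison, also 0% with the block and 0% with the block and without WT_DMSO replicate 1. The NMD ratio of Clk1 had the highest difference, 0.81 ± 0.84 (SE) on the log2 scale in KO_DHT_ENZ against KO_DHT, or ± 0.28 with the block, with a limma adjusted p of 0.9999 and 0.997. With the block it was the 1 member ratio with an unadjusted p under 0.05. Its NMD share was 32.2, 9.70, 6.28 and 18.6% in KO_DHT and 38.5, 12.95, 12.55 and 31.4% in KO_DHT_ENZ. The groups overlap widely, and in both the share in replicates 1 and 4 is above that in replicates 2 and 3. For retained introns, the median difference of the 10 members was -0.11 for the guide, 0.20 for DHT, 0.058 for enzalutamide against DHT and 0.25 for enzalutamide against DMSO. The medians over all 3975 retained-intron ratios were -0.079, 0.11, -0.062 and 0.040.

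Within every group the isoform mix followed the replicate number instead. This was seen after the values were known, and was then tested as a term with 4 levels over all features, with group means kept in the model. All 10 retained-intron ratios of the members differed between replicate numbers (limma, adjusted p from 0.00068 to 0.011), beside 46.7% of all 3975 such ratios. It was again 10 of 10 without WT_DMSO replicate 1, beside 47.7%. Relative to replicate 1, the median retained-intron ratio of the members was lower by 1.06 in replicate 2 and by 1.40 in replicate 3 on the log2 scale, and differed by 0.021 in replicate 4. Over all retained-intron ratios these medians were -0.66, -0.75 and -0.00014. Replicates 1 and 4 thus had more retained-intron RNA relative to coding RNA than replicates 2 and 3, in these genes and in nearly all others called: 1816 of the 1858 ratios called over all genes were below replicate 1 in both replicates 2 and 3.

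The direction was the same in coding shares, which are not independent of these ratios, since coding TPM is their denominator. The coding share of the gene's TPM was lower in all 8 libraries of replicates 1 and 4 than in all 8 of replicates 2 and 3 for 9 of the 10 genes, and for all 10 without WT_DMSO replicate 1. For Clk1 it was 24.3% to 43.1% in the first set and 53.8% to 64.5% in the second. For Srsf5 it was 58.6% to 63.6% and 72.3% to 79.5%. How many of all genes separate in this way is not given here. Coding transcripts of all genes took 73.7% to 84.1% of TPM in the first set. In the second set they took 82.6% to 85.9%, so these library-wide shares overlapped.

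The SR protein Srsf5 showed the intron pattern most plainly. Its retained-intron share was 13.8, 10.4, 9.16 and 21.9% in WT_DMSO replicates 1 to 4, and 18.1, 8.13, 7.64 and 17.3% in KO_DMSO. It was 23.4, 8.01, 8.81 and 21.9% in KO_DHT and 23.1, 7.86, 7.37 and 21.2% in KO_DHT_ENZ. In each group replicates 1 and 4 are above replicates 2 and 3, with no overlap over the 16 libraries. Srsf5-212, which keeps intron 5, was lower by 1.06 and 1.09 on the log2 scale in replicates 2 and 3 than in replicate 1 and differed by -0.038 in replicate 4 (edgeR adjusted p of 0.00025, beside 17.6% of all transcripts called). The coding transcript Srsf5-203 moved the other way, from 0.703% to 4.27% of the gene in replicates 1 and 4 to between 8.94% and 15.1% in replicates 2 and 3. The gene level of Srsf5 did not differ between numbers (edgeR adjusted p of 0.865).

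**Figure D3:**
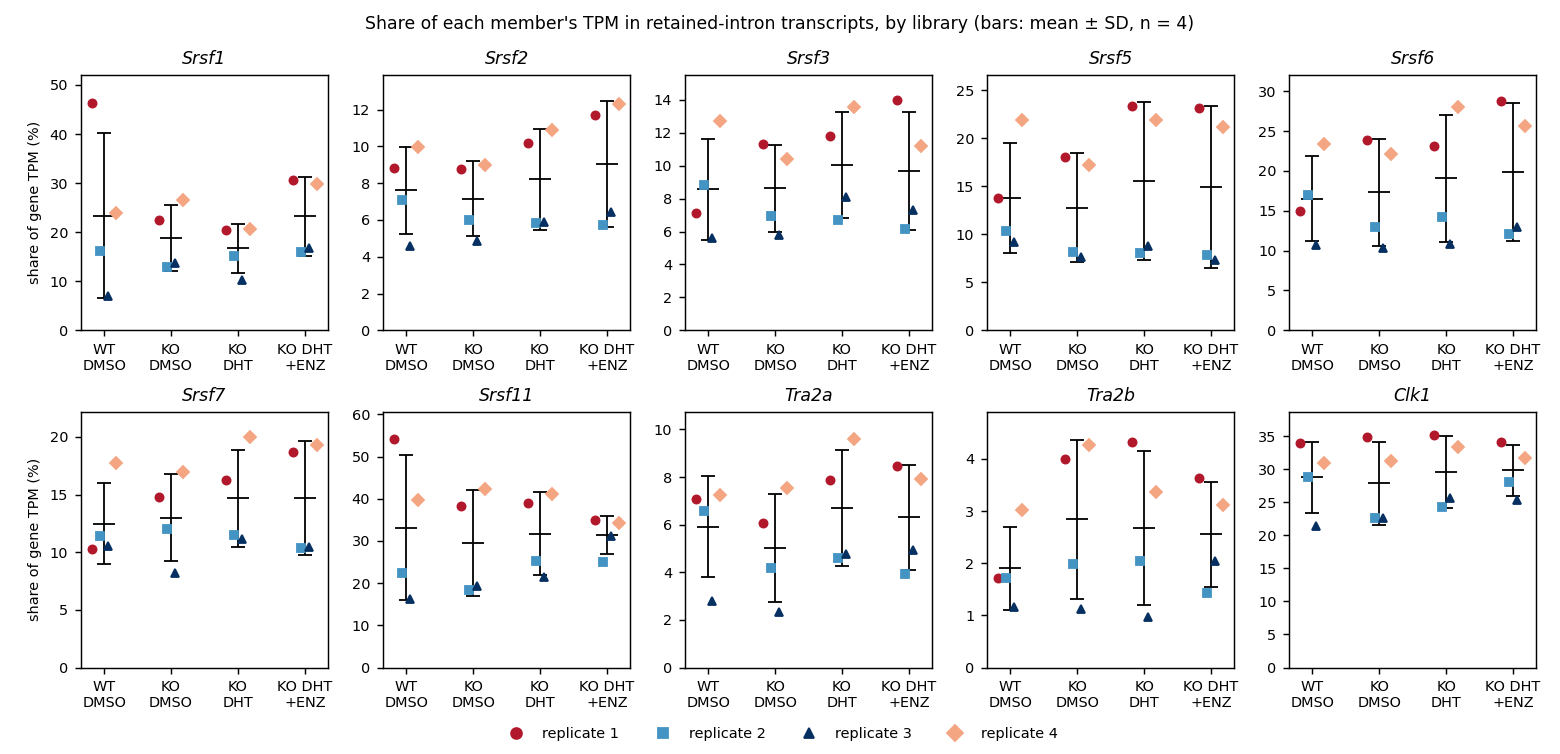
Share of each gene's TPM in retained-intron transcripts (y axis, percent, from 0, scaled for each gene) in the 4 groups (x axis). Points are libraries marked by replicate number and bars are the mean ± SD of 4 libraries. Replicates 1 and 4 lie above replicates 2 and 3 for 9 of the 10 genes once WT_DMSO replicate 1 is left out, and that library is the highest point of Srsf1 at 46.3% and of Srsf11 at 54.2%. The share of all genes that separate in this way is not given.

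The other retained-intron shares followed the same order. In Srsf6, intron 2 with its poison exon gave 22.7 ± 5.75% in replicate 1 and 24.8 ± 2.57% in replicate 4, against 14.1 ± 2.15% in replicate 2 and 11.2 ± 1.18% in replicate 3 (SD over the 4 groups). Srsf11 had 41.6 ± 8.57% and 39.4 ± 3.59% against 22.8 ± 3.23% and 22.0 ± 6.48%. Srsf2-203, which keeps intron 2 of Srsf2 (chromosome 11, 1059 bases), took 8.75% to 12.3% of the gene in replicates 1 and 4 and 4.57% to 7.06% in replicates 2 and 3. Tra2a is the gene whose retained-intron shares still overlapped without WT_DMSO replicate 1, at 6.06% to 9.59% against 2.35% to 6.59%.

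NMD ratios moved with the replicate number in fewer genes than retained-intron ratios did. They do not all measure poison-exon use. The NMD transcripts of Clk1 skip an exon, and Srsf1-204 and Srsf2-204 show no poison exon in the annotation. Of the 9 NMD ratios tested, those of Clk1, Tra2a and Srsf3 were called by limma, beside 14.7% of all 1449 NMD ratios. Without WT_DMSO replicate 1, Srsf11 and Tra2b were also called, 5 of 9 beside 15.3%. Srsf1, Srsf2, Srsf6 and Srsf7 were not called in either fit, with limma adjusted p-values of 0.13, 0.53, 0.77 and 0.12 in the first. Srsf6-201 in particular was between 12.3% and 20.9% of Srsf6 in replicates 2 and 3 and between 7.84% and 17.4% in replicates 1 and 4 outside WT_DMSO replicate 1, which had 48.0%. Its retained-intron partner Srsf6-204, which shares the poison exon, was the one that followed the number.

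Clk1, the kinase of the set, had the widest swing. Its NMD share was 22.8, 5.74, 6.01 and 29.4% in WT_DMSO replicates 1 to 4 and 25.6, 10.9, 12.4 and 28.9% in KO_DMSO. Averaged over the 4 groups it was 29.8 ± 7.04% in replicate 1, 9.82 ± 3.04% in replicate 2, 9.32 ± 3.67% in replicate 3 and 27.1 ± 5.76% in replicate 4 (SD). The lowest library of replicates 1 and 4, at 18.6%, is above the highest of replicates 2 and 3, at 12.95%. The NMD ratio was lower by 2.37 and 2.5 on the log2 scale in replicates 2 and 3 than in replicate 1, and differed by -0.31 in replicate 4 (limma adjusted p of 0.00068). Clk1-210, which skips the 91-base exon 4, and Clk1-204, which keeps the introns around it, both had more RNA in replicates 1 and 4 (edgeR adjusted p of 0.0018 and 0.014), and coding Clk1-201 had less (0.0011).

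**Figure D4:**
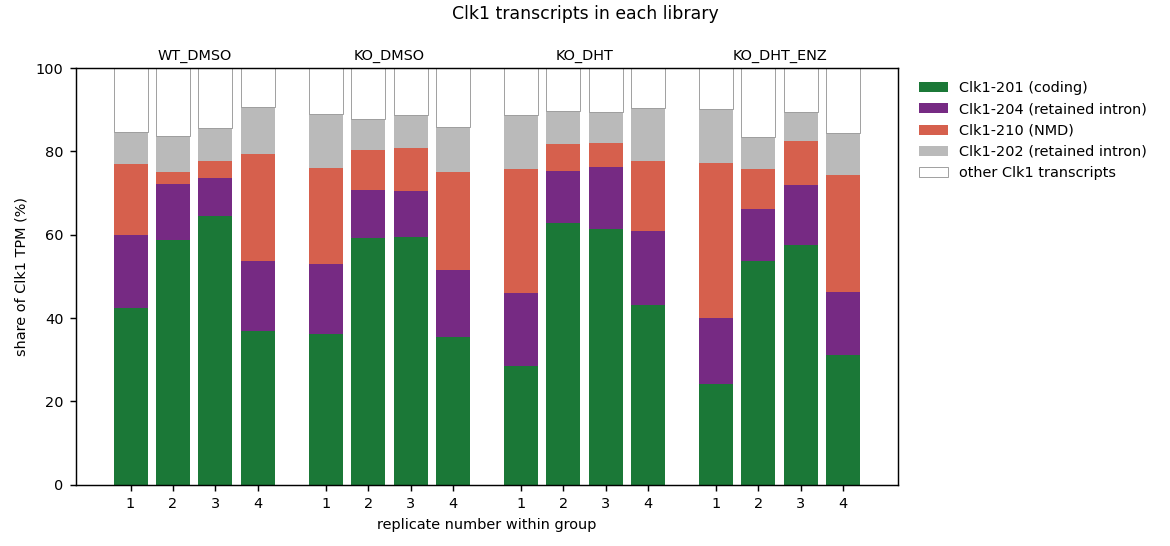
Share of Clk1 TPM (y axis, percent) in its named transcripts, stacked for each of the 16 libraries (x axis: replicate number within the 4 groups). The coding transcript Clk1-201 takes 24.3% to 43.1% in replicates 1 and 4 and 53.8% to 64.5% in replicates 2 and 3, and the exon-skipping Clk1-210 the reverse.

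In the Tra2a gene, poison-exon transcript Tra2a-202 was 28.1, 16.7, 14.4 and 26.4% of the gene in WT_DMSO replicates 1 to 4, 33.6, 14.8, 13.4 and 23.3% in KO_DMSO, and 34.8, 11.6, 15.7 and 30.4% in KO_DHT_ENZ. Replicates 1 and 4 are again above replicates 2 and 3 in every group. Tra2a-202 was lower by 1.37 and 1.37 on the log2 scale in replicates 2 and 3 than in replicate 1 (edgeR adjusted p of 0.00031). Tra2b, its closest relative, gave an NMD ratio lower by 1.007 and 1.258 in those numbers, with a limma adjusted p of 0.058. The values were 0.45 and 0.70 lower without WT_DMSO replicate 1, with an adjusted p of 0.011.

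**Figure D5:**
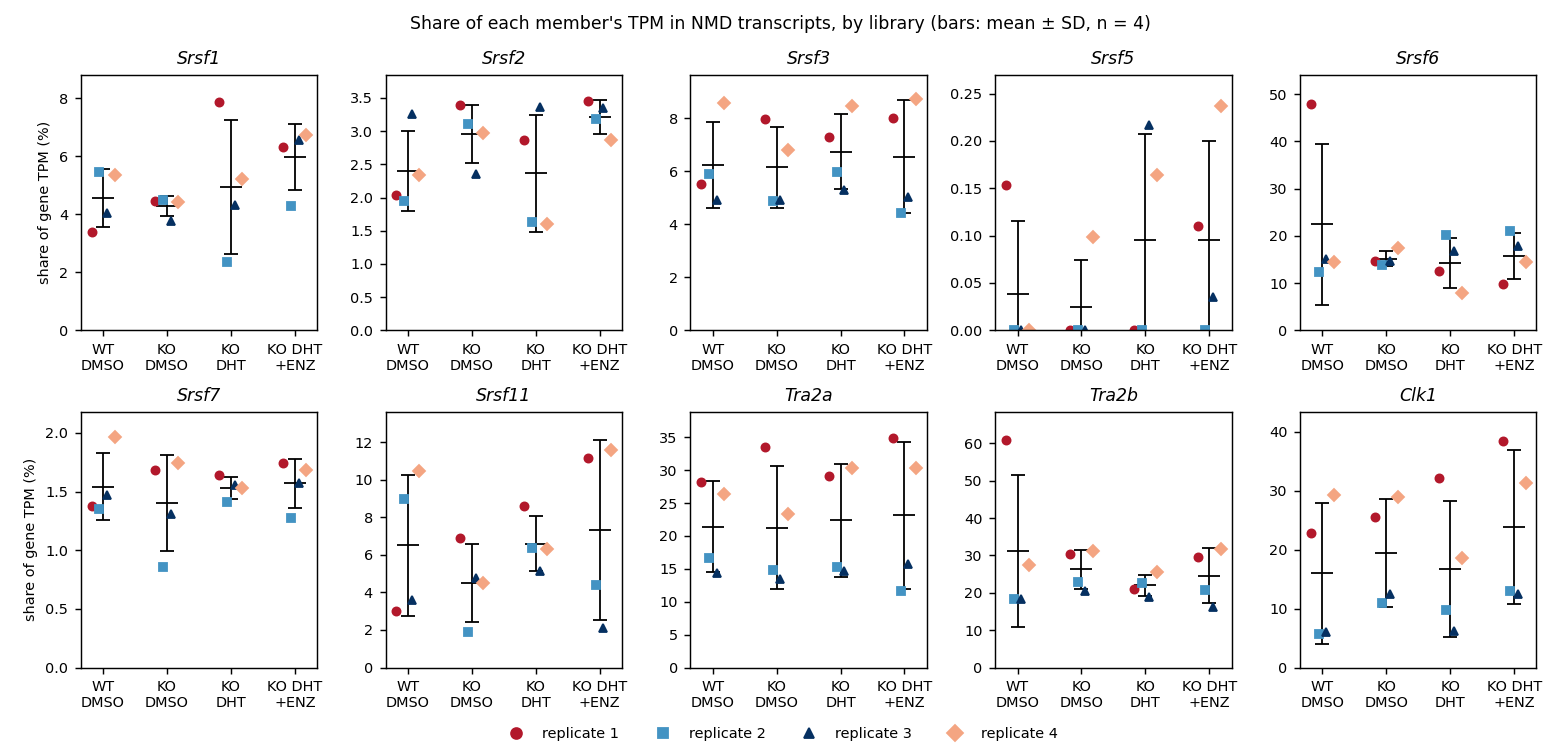
Share of each gene's TPM in NMD transcripts (y axis, percent, from 0, scaled for each gene) in the 4 groups (x axis), with libraries marked by replicate number and bars for the mean ± SD of 4 libraries. Clk1 and Tra2a split by replicate number without overlap, Srsf5 is at or near 0, and WT_DMSO replicate 1 is the highest point of Srsf6 at 48.0% and of Tra2b at 60.9%. This split was seen in these same values, and the share of all genes that separate in this way is not given.

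Of all tested member transcripts, 26 of 68 were called for the replicate number, beside 17.6% of all transcripts, and they divided by type. The 16 called retained-intron transcripts and the 2 called NMD transcripts were lower in replicates 2 and 3 than in replicate 1, and the 8 called coding transcripts were higher. Of the gene totals, 4 of 10 were called by edgeR, close to the 44.1% of all genes. Tra2a and Srsf11 were lower in replicates 2 and 3, by 0.43 and 0.46 and by 0.28 and 0.26 on the log2 scale, and Clk1 by 0.19 and 0.18, while Srsf2 was higher by 0.25 and 0.36. In these 4 genes the edgeR adjusted p-values were 0.00012, 0.0011, 0.037 and 0.0012. Without WT_DMSO replicate 1, 5 of 10 genes, with Srsf3 added, and 35 of 68 transcripts were called, beside 54.3% and 20.2% of all. On the TPM scale, which also responds to transcript length, Srsf1 lay between 232 and 293.5 in replicates 1 and 4 and between 168.6 and 201.9 in replicates 2 and 3, while its CPM ranges overlapped.

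Several measures of the whole library moved with the same numbers. Retained-intron transcripts took 4.03% to 5.33% of all TPM in the 8 libraries of replicates 1 and 4 and 2.52% to 3.09% in the 8 of replicates 2 and 3. NMD transcripts overlapped, at 1.55% to 1.70% and 1.45% to 1.64%, and so did the mean fragment length, at 314 to 344 and 281 to 346 bases. The 4 astrocyte markers summed to 99.7 to 137 TPM in replicates 1 and 4 against 31.5 to 78.3 TPM, the 5 neuron markers to 44.6 to 55.7 against 32.1 to 44.6 TPM, and the 5 markers of the oligodendrocyte lineage to 1215 to 1325 against 1323 to 1611 TPM. Progenitor markers overlapped, at 6359 to 7616 against 7110 to 8381 TPM, and of the astrocyte markers Aldh1l1 made up most of the sum at a mean of 74.0 TPM, with Gfap at 1.70 and Aqp4 at 0.115 TPM. Without WT_DMSO replicate 1 the library-wide retained-intron share of replicates 1 and 4 was 4.03% to 4.43%. The part of these measures in the isoform differences was not tested, and litter cannot be told apart from other differences between the numbers.

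Other genes of the splicing and decay machinery were read from 6 lists with 70 genes, all measured. For the guide, for DHT and for enzalutamide with DHT, 0 of the 70 were called in either direction by edgeR without the block. With the block 1 of the 70 was called in the comparison of KO_DHT_ENZ with KO_DHT, where 3.48% of all genes were, so the lists gave no more calls than the background. This gene, Upf3b, which links the exon junction complex to the NMD factors, fell by 0.35 ± 0.069 on the log2 scale in KO_DHT_ENZ against KO_DHT (adjusted p of 0.013, and 0.14 without the block). It was at 41.4 ± 4.198 CPM in KO_DHT_ENZ and 52.6 ± 3.48 CPM in KO_DHT (SD, n = 4). The other lists, beside the 15 NMD factors, were 4 further SR proteins, 7 SR kinases, 20 hnRNP and PTB proteins, 15 other RS-domain and spliceosome genes and 9 NMD-sensitive noncoding host genes such as Gas5. In KO_DHT_ENZ against KO_DHT the median log2 fold change was 0.29 for the host genes, -0.10 for the NMD factors, -0.086 for the hnRNP and PTB proteins, -0.079 for the RS-domain and spliceosome genes, -0.061 for the kinases and -0.028 for the further SR proteins. The median over all genes was -0.0025, and no host gene was called. For the replicate number, 36 of the 70 were called, which is near the 44.1% of all genes. By list these were 12 of 15 RS-domain and spliceosome genes, 11 of 20 hnRNP and PTB proteins, 9 of 15 NMD factors, 3 of 7 kinases, 1 of 9 host genes and 0 of 4 SR proteins.

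Across the 16 libraries the members did not all rise and fall together. The log2 CPM of Srsf2 and Srsf3 correlated at r = 0.95 and those of Srsf11 and Tra2a at 0.93, while Srsf2 and Tra2a correlated at -0.62. These are descriptions over libraries that share their replicate number and normalisation. Among 9737 other genes at or above 10 CPM on average, those most like the mean of the 10 members were Fundc1 (r = 0.89), Pmaip1 (0.85), Hnrnpa3 (0.83), Tardbp (0.83) and Depdc1a (0.81). Those most like Clk1 alone were Pcmtd2 (0.93), Prpf39 (0.92), Zcchc4 (0.91), Eif4a2 (0.90) and Usp33 (0.90).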

How the data were processed

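Libraries were quantified by the authors with kallisto against GRCm39, per the submitters' processing notes; the version is not given in the sources used here. The deposited files give estimated counts and TPM for 146190 transcripts. Transcripts were matched by unversioned identifier to GENCODE M21 (GRCm38), which gave gene names, biotypes and sequences for 135007 transcripts of 49166 genes. All 93 member transcripts matched with equal length, and no coordinates are used because the builds differ.

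Estimated counts were summed per gene and rounded, then tested with edgeR 4.0.16 (quasi-likelihood, TMM, filterByExpr) over all 16 libraries. Isoform ratios, log2((class TPM + 0.5)/(coding TPM + 0.5)) with both means at least 1 TPM, were tested with limma 3.58.1. Calls are Benjamini-Hochberg adjusted p under 0.05 over all features tested. DESeq2 1.42.0 was an alternative. Confidence intervals are 95%. The scripts were tested on simulated data. The test of replicate number (group means kept), the blocked fits without 1 library and DESeq2 with the block were added after seeing the data.

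Same-numbered libraries deviated together: r was 0.155 to 0.791 for the 16 pairs over 9747 genes, so the replicate number serves as a block and its value is given where it matters. Only 10 of the 16 libraries were closest to their own number, so same-numbered libraries need not be matched sets. All 10 members are named, as are their transcripts of at least 5% mean share and the most abundant of each class. The members and lists were chosen with earlier results of these data known.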

Additional observations from a re-analysis of the deposited data

Results flagged for a closer look

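Of 120 sets of 4 libraries (gene level, NMD share and retained-intron share of each gene in each group), 6 had 1 library far from the other 3 by Dixon's test, about the 1 in 20 that chance gives. The NMD share of Srsf6 in WT_DMSO replicate 1 was 48.0%, with the next library at 15.1%. The retained-intron share of Srsf7 in WT_DMSO replicate 4 was 17.7% and the next was 11.4%. The retained-intron share of Tra2a in WT_DMSO replicate 3 was 2.78% and the next was 6.59%. The NMD share of Srsf1 in KO_DMSO replicate 3 was 3.77% and the next was 4.42%. The NMD share of Srsf5 was 0.154% in WT_DMSO replicate 1 and 0.0984% in KO_DMSO replicate 4, where the other 3 libraries of each group were listed at 0. Of the 6, 2 fall in WT_DMSO replicate 1, the shallowest library.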

How the results depend on the processing

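In the 4 treatment comparisons, Srsf1, Srsf2 and the transcript Srsf1-205 were called with the replicate block and without WT_DMSO replicate 1. That setting was chosen after seeing the data. Otherwise no member gene, isoform ratio or transcript named by the rule on share was called under any setting tried. The other member transcripts were followed only in the main fit, with the block, and with the block and without WT_DMSO replicate 1. None of them was called there. The counts over all genes moved more. With the guide, 0 genes were called, 1 with transcript-length offsets and 827 with DESeq2 and the replicate block. For DHT, 0 became 1 with DESeq2 and 478 with DESeq2 and the block. For KO_DHT_ENZ against KO_DHT, 45 became 200 with DESeq2, 17 with no filter, 12 with length offsets, 591 with the replicate block and 1338 with DESeq2 and the block. Against KO_DMSO, 43 became 172, 9, 10, 499 and 1136 in the same order. Transcripts rose from 0 to 48, 47, 96 and 74 with DESeq2, and to 35 and 89 with the block in the 2 enzalutamide comparisons. Leaving out 1 library gave 0 to 0, 0 to 0, 2 to 116 and 0 to 98 genes in the 4 comparisons, and 0 to 15, 0 to 1, 169 to 1480 and 220 to 1247 with the block. For transcripts this gave at most 2, 0, 5 and 1, and at most 1, 0, 228 and 279 with the block. Isoform ratios stayed at 0 except 1 for DHT without KO_DHT replicate 2. For the replicate number, 6364 to 9352 genes, 6169 to 10210 transcripts and 1769 to 2117 ratios were called, with 3 to 5, 19 to 35 and 13 to 15 members among them. All 10 retained-intron ratios were called each time, and 3 to 5 NMD ratios (5 from estimated counts). Depth was lowest in WT_DMSO replicate 1. The cause of these shifts was not tested. The block changed no other member's call.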
